A study of Mus musculus with 12 samples.

Results

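Genes of DNA replication and cell division were followed in astrocyte preparations from mouse white matter during a cuprizone diet. The set was a list of 37 gene symbols, each read from the brightest transcript cluster annotated to it. Of these, 34 were measured among the 19505 named genes of the array, and Mcm7, Ccnb1 and Foxm1 were not analysed here. The measured genes fell into 6 roles: 8 genes of DNA replication, 6 cyclins and kinases, 8 genes of the spindle checkpoint and anaphase-promoting complex, 3 chromosomal passenger genes, 7 spindle and cytokinesis genes, and 2 chromosome genes.

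The arrays came from 4 groups of C57BL/6 mice with 3 arrays each, 12 in all: wild-type mice given cuprizone for 0, 3 or 12 weeks, and GnT-IX-deficient mice given it for 12 weeks. Cuprizone binds copper and causes the death of oligodendrocytes and loss of myelin, and it was mixed into the feed at 0.2% (w/w) from an age of 8 to 12 weeks. GnT-IX is the glycosyltransferase encoded by Mgat5b. Cells were released from white matter with papain, treated to block Fc receptors and taken with anti-GLAST beads, which bind a glutamate transporter that is the product of Slc1a3. All groups had the same range of starting ages, so mice fed for longer were older when sampled, and no mice kept on plain feed for 3 or 12 weeks and no deficient mice at 0 weeks were analysed here. RNA was prepared with either of a pair of kits, and the labels do not say which kit served which sample, so kit and group cannot be told apart. The labels call the replicates independent biological ones and do not say whether animals were pooled.

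Values are RMA-normalised log2 expression, so a difference of 1 is a doubling. Array medians lay between 5.38 and 5.45, and within groups the correlation of arrays over genes, which are not independent replicates, was 0.974 to 0.985. Mgat5b was 5.57 to 6.49 on the 9 wild-type arrays and 3.70, 4.19 and 4.06 on the deficient ones, a difference of -1.82 (SE 0.21, limma with Benjamini-Hochberg adjustment, adjusted p = 0.00159). Slc1a3 averaged 8.35 ± 0.44 at 0 weeks, 7.0 ± 0.51 at 3 weeks, 7.30 ± 0.28 at 12 weeks and 7.27 ± 0.31 in the deficient group (SD, n = 3 each), above the array medians everywhere. Besides astrocyte markers the preparations held microglial ones, and the mean of 14 microglia markers was 5.08 to 5.76 at 0 weeks, 6.73 to 9.04 at 3 weeks, 8.05 to 9.19 at 12 weeks and 7.43 to 8.60 in the deficient group. In such bulk samples, a change in the number of dividing cells and a change in transcript per cell cannot be told apart.

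A cell copies its DNA once before it divides. The MCM proteins form the ring helicase that opens the double helix, PCNA is the sliding clamp that holds the polymerases on the template, and Rrm2 and Tyms supply DNA building blocks. Later, cyclin and kinase pairs such as Ccnb2 and Cdk1 drive entry into mitosis, the spindle checkpoint (Bub1, Bub1b, Ttk) holds the cell until every chromosome is attached, and the anaphase-promoting complex with Cdc20 and Ube2c then releases it. In the healthy adult brain most astrocytes do not divide, oligodendrocyte precursors divide slowly, and microglia multiply after injury.

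The promoters of these genes are known for short shared elements: E2F sites at genes of the replication phase, and the cell cycle homology region (CHR), often with CCAAT boxes, at genes of mitosis. The upstream 250 bases of 5 promoters are printed because they span these kinds. They are those of Pcna, called higher at 3 and 12 weeks in wild-type mice, and Bub1, called higher at 12 weeks only. The others are the replication gene Mcm6 and the mitotic markers Cdk1 and Mki67. The calls of Pcna and Bub1 were lost when single arrays were left out, as given below. All sequences are RefSeq's on GRCm38.p6, minus strand, 5′ to 3′, ending at the base before the first listed start site. Capitals mark the CHR letters TTTGAA, the CCAAT box CCAAT and the E2F-like pattern TTTNNCGC (N is any base), each searched on both strands, with overlapping matches merged.
Pcna (chr2:132253181-132253430): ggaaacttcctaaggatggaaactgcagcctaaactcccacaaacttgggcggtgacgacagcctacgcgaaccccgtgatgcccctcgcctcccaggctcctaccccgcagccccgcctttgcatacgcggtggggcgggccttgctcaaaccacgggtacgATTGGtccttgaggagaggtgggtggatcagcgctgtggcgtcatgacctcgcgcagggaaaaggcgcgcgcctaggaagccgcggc
Bub1 (chr2:127831860-127832109): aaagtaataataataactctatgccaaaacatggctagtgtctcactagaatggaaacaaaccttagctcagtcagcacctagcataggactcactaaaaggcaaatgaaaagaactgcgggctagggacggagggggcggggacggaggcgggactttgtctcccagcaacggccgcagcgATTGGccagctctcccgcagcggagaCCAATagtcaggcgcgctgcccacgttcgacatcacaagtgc
Mcm6 (chr1:128359706-128359955): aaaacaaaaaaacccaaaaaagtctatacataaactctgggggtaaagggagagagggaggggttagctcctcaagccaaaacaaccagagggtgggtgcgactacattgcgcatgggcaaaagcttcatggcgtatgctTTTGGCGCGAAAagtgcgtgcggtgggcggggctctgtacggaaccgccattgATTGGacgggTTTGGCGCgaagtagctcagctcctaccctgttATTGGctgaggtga
Cdk1 (chr10:69352913-69353162): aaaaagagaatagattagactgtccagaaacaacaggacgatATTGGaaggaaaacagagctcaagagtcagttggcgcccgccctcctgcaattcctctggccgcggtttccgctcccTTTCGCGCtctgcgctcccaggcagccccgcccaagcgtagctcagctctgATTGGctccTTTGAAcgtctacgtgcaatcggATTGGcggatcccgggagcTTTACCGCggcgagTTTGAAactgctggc
Mki67 (chr7:135716380-135716629): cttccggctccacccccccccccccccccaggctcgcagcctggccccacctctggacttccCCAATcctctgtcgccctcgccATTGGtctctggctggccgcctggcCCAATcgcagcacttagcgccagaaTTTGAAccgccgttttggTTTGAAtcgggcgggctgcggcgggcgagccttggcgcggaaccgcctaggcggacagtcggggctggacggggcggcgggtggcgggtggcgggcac
In the Pcna stretch the only match was a CCAAT box on the opposite strand, whose first base lay at -87 from the start. Bub1 had CCAAT boxes at -68 and -42 and neither of the other patterns. Mcm6 had E2F-like matches at -110, -106 and -47, of which the first and second overlap, and CCAAT boxes at -57 and -14. Cdk1 held all 3 kinds, with CHR letters at -71 and -15, E2F-like matches at -131 and -29 and CCAAT boxes at -208, -80 and -48. Mki67 had CHR letters at -116 and -98 and CCAAT boxes at -188, -166 and -141.

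Over windows of 300 bases (250 before to 50 from the start), 28 of the 34 genes had a promoter in the RefSeq table; Mcm4, Ccna2, Pbk, Aurkb, Tpx2 and Kif20a did not. CHR letters stood in 17 of the 28 (60.7%), against 15.8% of the 15691 tested genes with a promoter. CCAAT stood in 23 (82.1%, all genes 38.8%) and the E2F-like pattern in 5 (17.9%, all genes 6.53%). Among these members the roles differed in what they held. Of 21 mitosis promoters, 16 had CHR letters (76.2%) and 1, Cdk1, had the E2F-like pattern. Of 7 replication promoters, 1, Mcm2, had CHR letters, and 4 had the E2F-like pattern (Mcm3, Mcm5, Mcm6 and Tyms). The gap in the E2F-like pattern was smaller in genes outside the 34. It stood in 10 of 48 other mitosis promoters (20.8%) and 10 of 32 other replication promoters (31.2%). CHR letters stood in 31 (64.6%) and 7 (21.9%) of these. CHR letters and a CCAAT box occurred together in 16 members (57.1%), against 6.54% of all genes. Melk, Birc5 and Nusap1 had none of the 3 patterns. These are matches of letters, not measured binding sites.

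**Figure D1:**
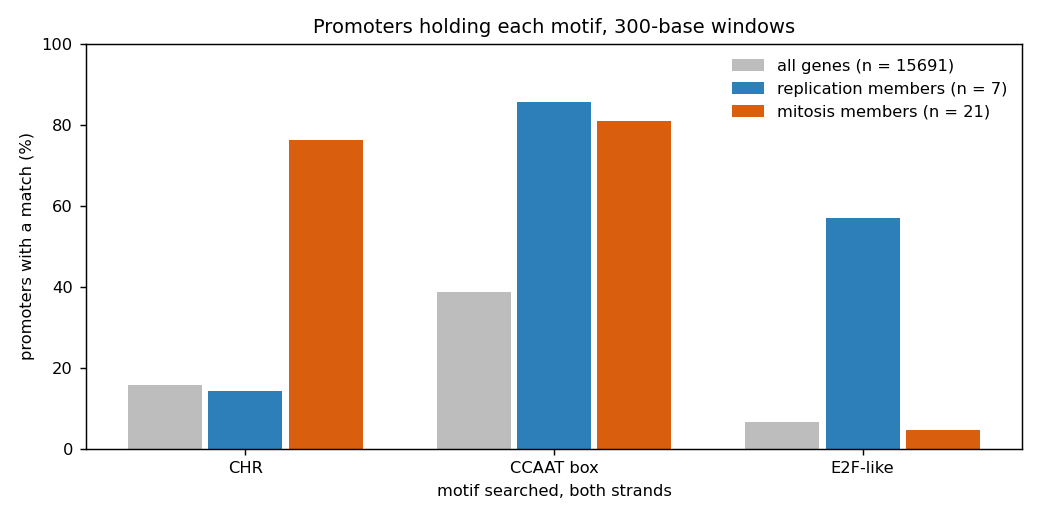
Percent of promoters (y axis) holding each motif (x axis) in 300-base RefSeq windows, for all 15691 tested genes with a promoter, 7 replication members and 21 mitosis members. CHR letters were in 76.2% of the mitosis promoters and 14.3% of the replication promoters, and the E2F-like pattern in 4.76% and 57.1%.

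At 3 weeks of cuprizone the replication clamp gene Pcna was 2.03-fold higher than at 0 weeks, and most other members lay above their 0-week level without passing the test. Of the 34 genes, 29 had a positive difference, with a median of 0.30 on the log2 scale and a range of -0.26 to 1.31, where the median of all genes was -0.017. Pcna was the 1 member that rose (2.94% of members) and none fell, beside 3.24% of all genes called in either direction, 1.61% called higher and 1.63% called lower. By the unadjusted limma p under 0.05, 11 members were higher (32.4%, all genes 8.81%) and 0 lower (all genes 7.3%). The values of the 3-week arrays lay wholly above those at 0 weeks for 7 members (20.6%, all genes 10.8%) and wholly below for 1, the checkpoint kinase gene Ttk (all genes 10.5%).

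At 12 weeks 4 members passed the threshold against 0 weeks: Pcna, the checkpoint kinase gene Bub1, the chromosomal passenger kinase gene Aurkb, and Pbk, which encodes a mitotic kinase. These 4 of 34 genes (11.8%) rose by 1.79-fold to 3.14-fold and none fell, where 2.64% of all genes were called, 2.11% higher and 0.523% lower. A positive difference was seen for 31 members, with a median of 0.46 and a range of -0.57 to 1.65 (median of all genes -0.013). At the unadjusted p, 16 were higher (47.1%, all genes 8.21%) and 1, Cenpf, was lower (all genes 6.85%). The 12-week arrays lay wholly above the 0-week arrays for 15 members (44.1%, all genes 10.8%) and wholly below for 1, again Cenpf (all genes 9.95%). Both comparisons use the same 3 arrays at 0 weeks, and the direct comparison of 12 with 3 weeks called 0 of the 34 genes. With 1 array left out, 0 to 7 members were called at 12 weeks against 0 weeks. Over the 4 groups, the 0-week mean was the lowest for 25 of the 34 genes (73.5%, all genes 27.4%), and the wild-type 12-week mean was the highest for 19 (55.9%, all genes 20.8%).

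**Figure D2:**
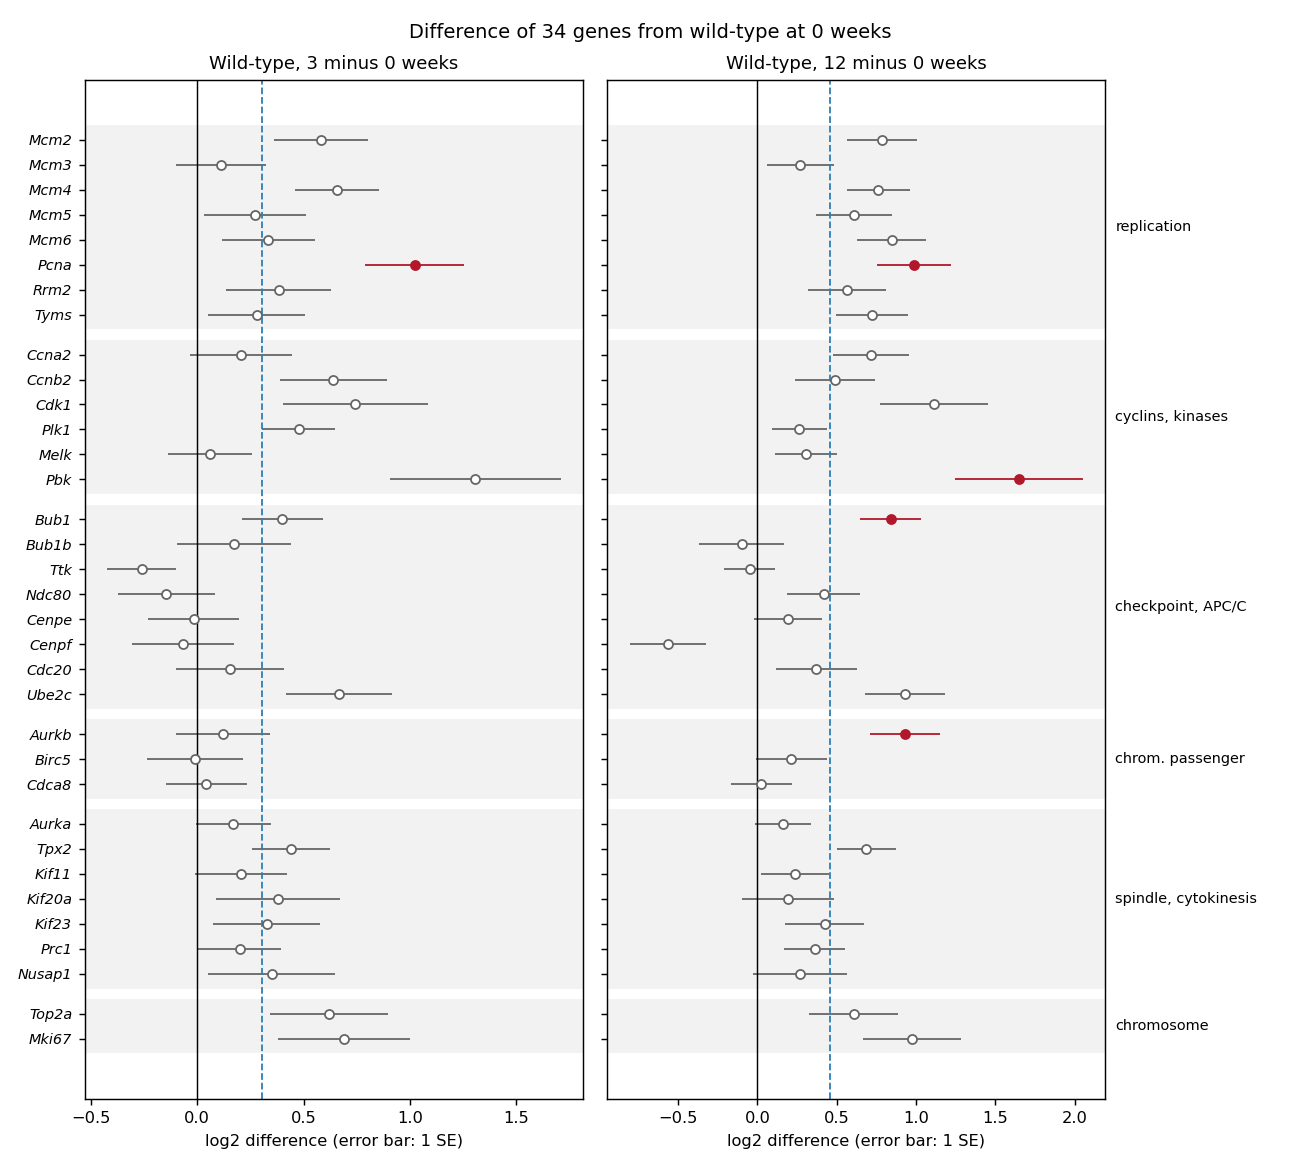
Log2 difference of each of the 34 genes from wild-type at 0 weeks (x axis, error bars 1 SE) after 3 weeks (left) and 12 weeks (right), grouped by role. Filled red points passed the adjusted threshold (1 gene at 3 weeks, 4 at 12 weeks) and the dashed line is the members' median (0.30 and 0.46).

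All 8 replication genes had positive differences at both times, with medians of 0.36 at 3 weeks and 0.74 at 12 weeks, and 7 of 8 lay wholly above the 0-week arrays at 12 weeks (all genes 10.8%), the exception being Mcm3. Pcna was 7.21, 7.10 and 7.52 at 0 weeks, 8.55, 7.86 and 8.49 at 3 weeks, 8.16, 8.41 and 8.22 at 12 weeks, and 7.79, 8.05 and 8.63 in the deficient group. Every array on cuprizone was above every 0-week array, and the 3 diet groups overlapped one another. Pcna rose by 1.02 at 3 weeks (SE 0.23, 2.03-fold, adjusted p = 0.0270) and by 0.99 at 12 weeks (SE 0.23, 1.98-fold, adjusted p = 0.0353). The 3-week call was lost without 0-week replicate 1 (adjusted p = 0.104) or 2 (0.114), or 3-week replicate 1 (0.116) or 3 (0.0883). The 12-week call was lost without 0-week replicate 1 (0.136) or 2 (0.163) or any 12-week array (0.0558, 0.170 and 0.0874), while the difference stayed between 0.90 and 1.11.

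None of the 5 MCM helicase subunits measured passed the threshold. Mcm4 read 4.51, 4.53 and 4.87 at 0 weeks, 5.30, 5.18 and 5.40 at 3 weeks, 5.40, 5.58 and 5.22 at 12 weeks, and 4.64, 4.73 and 5.31 in the deficient mice. Both wild-type diet groups lay above the 0-week arrays, while 2 of the 3 deficient arrays fell in the 0-week range. Its differences from 0 weeks, 0.66 (SE 0.20, adjusted p = 0.0879) and 0.76 (SE 0.20, adjusted p = 0.0516), did not pass. Mcm6 was 5.62, 5.82 and 6.25 at 0 weeks, 6.57, 6.07 and 6.05 at 3 weeks, 6.82, 6.88 and 6.53 at 12 weeks, and 6.09, 6.22 and 6.69 in the deficient group. Its 12-week arrays stood above the 0-week ones, with a difference of 0.85 (SE 0.22, adjusted p = 0.0531), while the 3-week arrays overlapped them. Mcm2 was 6.27, 6.57 and 6.76 at 0 weeks, 7.22, 7.0 and 7.13 at 3 weeks, 7.74, 7.30 and 6.92 at 12 weeks, and 6.65, 6.74 and 7.23 in the deficient group. Neither wild-type diet group overlapped 0 weeks, and the differences of 0.58 (adjusted p = 0.192) and 0.79 (adjusted p = 0.0783) did not pass. The other subunits differed by 0.61 (Mcm5) and 0.27 (Mcm3) at 12 weeks.

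Tyms, which makes thymidylate, gave 5.84, 5.67 and 6.16 at 0 weeks, 6.62, 5.73 and 6.16 at 3 weeks, 6.78, 6.80 and 6.26 at 12 weeks, and 6.86, 6.75 and 6.56 in the deficient group. The arrays of both 12-week groups were above all 0-week arrays, and the 3-week arrays overlapped them. The wild-type difference at 12 weeks was 0.72 (SE 0.23, adjusted p = 0.125). Rrm2, the small subunit of ribonucleotide reductase, differed by 0.38 at 3 weeks and 0.57 at 12 weeks (adjusted p = 0.496 and 0.291).

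Among cyclins and kinases the medians were 0.56 at 3 weeks and 0.60 at 12 weeks. Of the 6, 1 rose, Pbk at 12 weeks, beside 2.11% of all genes called higher then. Pbk was 4.23, 4.71 and 5.73 at 0 weeks, 6.40, 6.57 and 5.62 at 3 weeks, 7.35, 6.26 and 6.01 at 12 weeks, and 5.49, 6.13 and 6.51 in the deficient group. The 0-week arrays spread over more than a log2 unit, their highest value overlapped the 3-week group, and the wild-type 12-week group lay clear of them. Pbk rose by 1.65 at 12 weeks (SE 0.40, 3.14-fold, adjusted p = 0.0408), and its 3-week difference was 1.31 (SE 0.40, adjusted p = 0.0985). The 12-week call was lost without 0-week replicate 1 (difference 1.32, adjusted p = 0.203) or 2 (0.165), 12-week replicate 1 (0.125) or 2 (0.111), or deficient replicate 2 (0.0589), and under trended and robust variances (0.0697).

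Cdk1, the kinase that starts mitosis, was 3.63, 3.96 and 4.66 at 0 weeks, 5.72, 4.16 and 4.60 at 3 weeks, 5.34, 5.29 and 4.96 at 12 weeks, and 5.05, 5.77 and 5.48 in the deficient group. Both 12-week groups were above all 0-week arrays, and at 3 weeks replicate 1 alone was. The differences in wild-type mice were 0.74 (SE 0.34, adjusted p = 0.295) and 1.11 (SE 0.34, adjusted p = 0.110). Without 3-week replicate 1 the difference at 3 weeks was 0.30. Of its partners, Ccna2 differed by 0.21 and 0.72, and Ccnb2 by 0.64 and 0.49. The mitotic kinase gene Plk1 differed by 0.48 and 0.26, and Melk, another kinase gene, by 0.06 and 0.31. None of these passed.

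Checkpoint and anaphase genes were mixed, with medians of 0.068 and 0.28. Bub1 was 3.25, 2.78 and 3.04 at 0 weeks, 3.68, 3.54 and 3.05 at 3 weeks, 3.90, 3.87 and 3.82 at 12 weeks, and 3.26, 3.49 and 3.61 in the deficient group. The wild-type 12-week arrays were above all others and close together, while 0 and 3 weeks overlapped. Bub1 rose by 0.84 at 12 weeks (SE 0.19, 1.79-fold, adjusted p = 0.0302). The call was lost without any one of the 6 arrays compared: 0-week replicates 1 to 3 gave adjusted p = 0.0568, 0.161 and 0.0630, and 12-week replicates 1 to 3 gave 0.0705, 0.127 and 0.0747. Its 0-week values were below every array's lower quartile (3.73 to 3.85), and so were the 12-array means of Bub1, Melk, Bub1b, Ttk, Cenpe and Kif20a, 6 of the 34 members. Signal over background was not measured here, and RMA compresses differences between dim values.

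Ube2c, the ubiquitin-conjugating enzyme of the anaphase-promoting complex, was 4.45, 4.81 and 5.17 at 0 weeks, 5.90, 5.33 and 5.20 at 3 weeks, 6.22, 5.52 and 5.48 at 12 weeks, and 5.32, 5.76 and 5.71 in the deficient group. Every array on cuprizone was above every 0-week array. Its differences of 0.67 (adjusted p = 0.189) and 0.93 (SE 0.25, adjusted p = 0.0654) did not pass. Cenpf, a kinetochore gene, ran the other way at 12 weeks, with 4.30, 4.45 and 4.42 at 0 weeks against 4.07, 3.89 and 3.51 at 12 weeks. Those groups did not overlap, and the difference of -0.57 (SE 0.24, adjusted p = 0.273) did not pass. The remaining genes of this role, Bub1b, Ttk, Ndc80, Cenpe and Cdc20, differed by -0.26 to 0.17 at 3 weeks and -0.10 to 0.42 at 12 weeks.

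Of the chromosomal passenger genes, whose proteins correct faulty spindle attachments, Aurkb rose and Birc5 and Cdca8 did not pass. Aurkb read 5.67, 5.92 and 6.05 at 0 weeks, 6.15, 5.96 and 5.89 at 3 weeks, 7.38, 6.43 and 6.63 at 12 weeks, and 6.09, 6.41 and 6.33 in the deficient group. The wild-type 12-week arrays lay above all 9 others, and 0 and 3 weeks overlapped. Aurkb rose by 0.93 from 0 to 12 weeks (SE 0.22, 1.91-fold, adjusted p = 0.0358). Leaving out any one of the 6 arrays ended the call: 0-week replicates 1 to 3 gave adjusted p = 0.169, 0.120 and 0.0509, and 12-week replicates 1 to 3 gave 0.10, 0.0529 and 0.0609. It also failed in a fit of those 6 arrays alone (0.0603). Birc5 and Cdca8 differed by 0.21 and 0.02 at 12 weeks.

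Spindle and cytokinesis genes had medians of 0.33 and 0.27, all 7 with positive differences at both times and none past the threshold. Tpx2, which activates Aurora A on the spindle, was 4.55, 4.39 and 4.51 at 0 weeks, 5.13, 4.71 and 4.93 at 3 weeks, 5.16, 5.24 and 5.11 at 12 weeks, and 4.49, 4.81 and 5.16 in the deficient group. Both wild-type diet groups lay above the 0-week arrays, and the deficient group overlapped them. The differences were 0.44 (SE 0.18, adjusted p = 0.243) and 0.69 (SE 0.18, adjusted p = 0.0636). The motor genes Kif11, Kif20a and Kif23, the spindle midzone gene Prc1, the spindle gene Nusap1 and the kinase gene Aurka differed by 0.17 to 0.38 at 3 weeks and 0.16 to 0.42 at 12 weeks.

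The proliferation marker Mki67 was 5.47, 5.56 and 6.28 at 0 weeks, 6.69, 6.37 and 6.32 at 3 weeks, 7.38, 6.89 and 5.97 at 12 weeks, and 6.38, 5.99 and 6.69 in the deficient group. The 3-week arrays stood just above the 0-week ones, and 12-week replicate 3 lay within the 0-week range. The differences were 0.69 (SE 0.31, adjusted p = 0.283) and 0.98 (SE 0.31, adjusted p = 0.126). Top2a, the topoisomerase that untangles chromosomes, differed by 0.62 and 0.61 (adjusted p = 0.285 and 0.321).

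**Figure D3:**
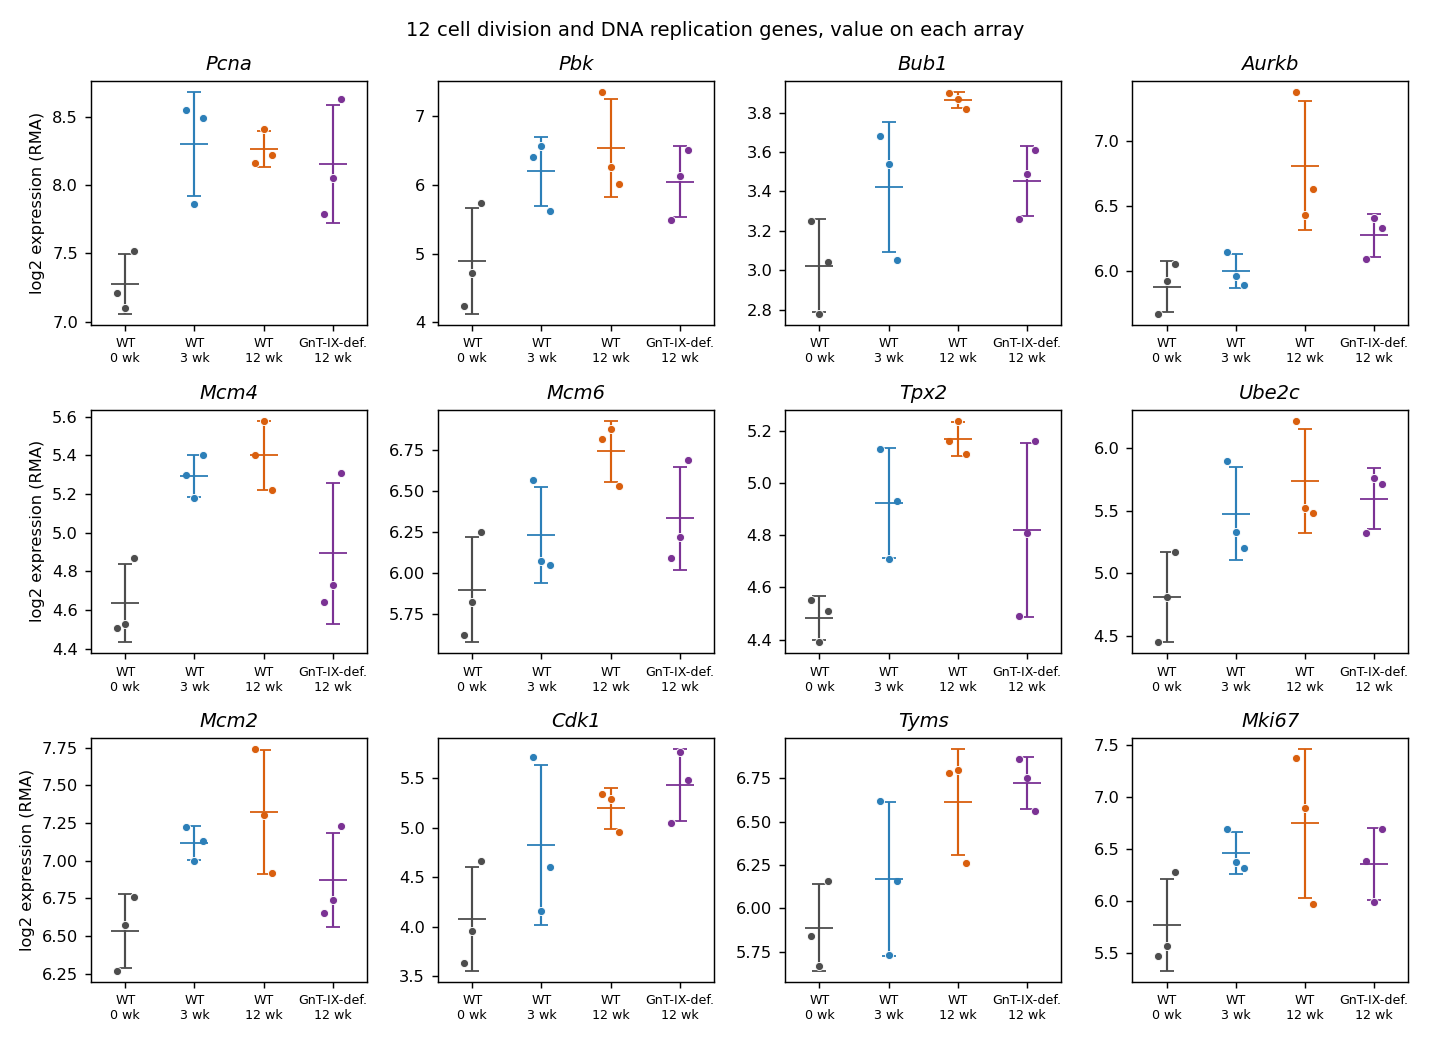
RMA log2 value on each array (points) with the group mean and SD (bar and whiskers, n = 3) for 12 genes: the 4 that passed the threshold and the 8 with the next smallest p over the 4 comparisons. For Pcna and Ube2c all 9 arrays on cuprizone lie above the 3 arrays at 0 weeks, while for Aurkb and Bub1 the 3 wild-type 12-week arrays lie above the other 9. The gap for Ube2c is narrow (lowest array on cuprizone 5.20, highest 0-week array 5.17), and Ube2c passed the threshold in no comparison.

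Replicates of a group were uneven over the whole set. The mean of the 8 replication genes was 5.74, 5.79 and 6.13 at 0 weeks, 6.61, 6.14 and 6.27 at 3 weeks, and 6.68, 6.70 and 6.36 at 12 weeks. That of the 26 other members was 4.45, 4.52 and 4.84 at 0 weeks, 5.12, 4.86 and 4.73 at 3 weeks, and 5.21, 5.08 and 4.86 at 12 weeks. Replicate 3 was the highest of the 0-week arrays in both sets, replicate 1 the highest at 3 weeks, and replicate 3 the lowest at 12 weeks. Without 0-week replicate 3 the median of the 34 differences at 12 weeks was 0.67, and without 3-week replicate 1 the median at 3 weeks was 0.19.

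Other cell types' markers moved between the same groups, and their part in the results was not tested. The marker counts below stand beside 1.61% of all genes called higher and 1.63% called lower at 3 weeks. At 12 weeks these shares were 2.11% and 0.523%. Of 14 microglia markers, 10 rose at 3 weeks and 12 at 12 weeks, with median differences of 2.34 and 3.35. Their differences ranged from 0.57 to 3.27 at 3 weeks and from 0.51 to 4.33 at 12 weeks. P2ry12 (1.12, adjusted p = 0.350, limma), Tmem119 (0.57, 0.448), Aif1 and Fcer1g did not pass at 3 weeks. The adaptor gene Tyrobp, named after its value was seen and at the upper end of the 12-week range, averaged 5.06, 8.15 and 9.39 at 0, 3 and 12 weeks. The microglial means were 5.76, 5.08 and 5.42 at 0 weeks, 9.04, 7.09 and 6.73 at 3 weeks, and 8.05, 9.19 and 8.38 at 12 weeks. At 3 weeks replicate 1 was highest in microglial, replication and other member means alike. At 0 weeks microglial means were highest on replicate 1 and member means on replicate 3, and at 12 weeks replicate 1 had the lowest microglial mean and the highest mean of the 26 other members. Of 9 macrophage and monocyte markers, 2 rose at 3 weeks and 3 at 12 weeks, with array means of 3.74 to 4.02 at 0 weeks and 5.20 to 5.59 at 12 weeks. Of 10 endothelial markers, 4 rose at 12 weeks, with array means of 5.63 to 5.84 at 0 weeks and 6.52 to 6.92 at 12 weeks.
The 9 oligodendrocyte precursor markers had means of 8.41, 8.53 and 8.86 at 0 weeks and 9.20, 9.37 and 9.28 at 3 weeks. At 12 weeks these means were 8.98, 9.44 and 8.55, and none of the 9 markers passed the test at either time. Precursor and member means alike were highest on replicate 3 at 0 weeks and lowest on replicate 3 at 12 weeks. At 3 weeks precursor means were highest on replicate 2 and member means on replicate 1. The 12 astrocyte markers had means of 9.44 to 9.80, 8.73 to 9.11 and 8.99 to 9.55. At 3 weeks 6 of them fell, among them the selection target Slc1a3 (-1.35, adjusted p = 0.0150, lost without 0-week replicate 1 or 3-week replicate 3, up to 0.0839), and 1, Gfap, rose; at 12 weeks 1 fell and Gfap rose. Of 10 oligodendrocyte markers, 1 fell at 12 weeks, when their median difference was -0.825, and of 8 neuron markers 2 rose at 3 weeks and none at 12 weeks. The 9 neural progenitor markers had means of 5.39 to 5.61, 5.51 to 5.78 and 5.56 to 5.81.

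**Figure D4:**
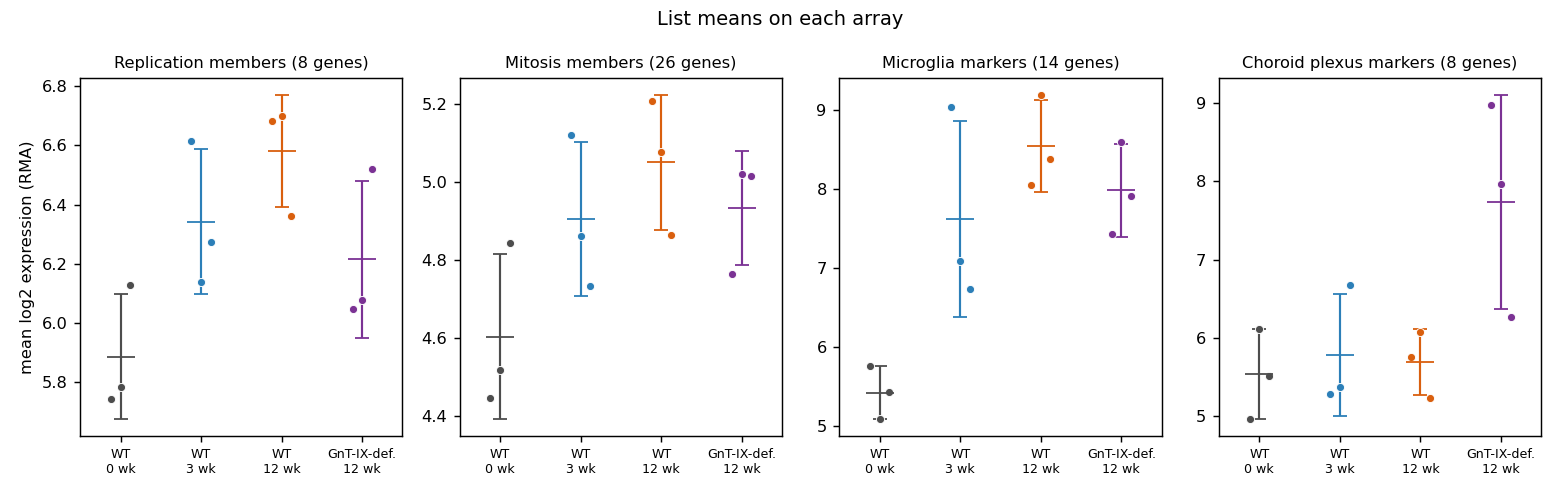
Mean RMA log2 expression of each gene list on each array (points), with the group mean and SD (n = 3). Replication members averaged 5.89 at 0 weeks and 6.58 at 12 weeks in wild-type mice, microglia markers 5.42 and 8.54, and choroid plexus markers stood highest on deficient replicates 1 and 2 (8.98 and 7.96).

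The rest of the pathway was read from 4 further lists that share no gene with the 34, and their counts stand beside 1.61% of all genes called higher at 3 weeks and 2.11% at 12 weeks. Of 40 other replication genes, Fen1, which trims Okazaki fragments, rose at 3 weeks (0.92, SE 0.22, adjusted p = 0.0359). At 12 weeks 4 rose: Gins1, a subunit of the replicative helicase (1.27, adjusted p = 0.00844), the histone chaperone genes Asf1b (1.02, 0.0316) and Chaf1b (0.77, 0.0337), and the primase subunit Prim2 (0.61, 0.0473). None fell, and the list medians were 0.093 and 0.14. Of 56 other mitosis genes, the kinetochore gene Zwint rose at 3 weeks (0.85, adjusted p = 0.0365). At 12 weeks limma called 0 of the 56, with 13 higher and 1 lower at the unadjusted p (all genes 8.21% and 6.85%), and the medians were 0.16 and 0.29. Of 17 regulators of entry into replication, Myc rose at 3 weeks (1.47, adjusted p = 0.0376), and the relative Mycn (0.90, 0.0393) and the D-type cyclin gene Ccnd2 (0.72, 0.0442) rose at 12 weeks. The medians of this list were 0.10 and 0.35.

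Of 19 cell cycle inhibitors and their regulators, 5 passed the threshold upward at 3 weeks, beside 1.61% of all genes called higher: Cdkn1a, which encodes the cyclin kinase inhibitor p21, the stress genes Gadd45b and Gadd45a, Ccng1, a target of p53, and Mdm2, which restrains p53 and was named after its value was seen. Cdkn1a was 9.02, 9.29 and 6.54 at 0 weeks, 11.32, 11.93 and 11.45 at 3 weeks, 10.74, 9.95 and 10.54 at 12 weeks, and 9.72, 10.05 and 10.41 in the deficient group. Every array on cuprizone was above the 0-week arrays, of which replicate 3 was far below the other two. Cdkn1a rose by 3.28 at 3 weeks (SE 0.51, adjusted p = 0.00330) and by 2.13 at 12 weeks (adjusted p = 0.0369), and without 0-week replicate 3 these differences were 2.41 and 1.255. Gadd45b rose by 2.39 (adjusted p = 0.00119) and 2.20 (0.00181), and at 3 weeks Ccng1 rose by 1.46 (0.00165), Gadd45a by 1.32 (0.00965) and Mdm2 by 0.75 (0.0487). At 12 weeks 3 of the 19 rose, Cdkn1a, Gadd45b and Btg2 (1.23, adjusted p = 0.0163), beside 2.11% of all genes called higher, and none fell at either time. The others did not pass: 5 of the 19 differences were negative at 3 weeks and 8 at 12 weeks, and the medians of the list were 0.23 and 0.16.
These 17 calls fell on 15 genes of the 4 lists. Leaving out each of the 6 arrays compared kept 4 of them in every case, those of Cdkn1a, Ccng1 and Gadd45b at 3 weeks and of Gadd45b at 12 weeks. Prim2 and Mdm2 lost theirs without any one of the 6 arrays (adjusted p up to 0.170 and 0.198). Fen1, Zwint, Ccnd2, Mycn, Chaf1b and Asf1b lost theirs without 5 of them (up to 0.165, 0.140, 0.203, 0.190, 0.161 and 0.165). Myc and the 12-week call of Cdkn1a were lost without 4 (up to 0.142 and 0.108, the latter also without deficient replicate 2). Btg2 was lost without 3 (0.0978), Gins1 without 0-week or 12-week replicate 2 (up to 0.0610), and Gadd45a without 0-week replicate 2 (0.0538). The calls of Prim2, Mdm2, Ccnd2 and Mycn also depended on arrays outside the 6 compared. Over all 20 alternatives, Prim2 lost its call in 16, Mdm2 in 14, Ccnd2 in 11 and Mycn in 8.

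From 3 to 12 weeks in wild-type mice, limma called 0 of the 34 genes, beside 0.082% of all genes (0.0256% higher and 0.0564% lower). At the unadjusted p, 4 were higher (11.8%, all genes 5.69%) and 0 lower (all genes 5.7%). The median difference was 0.205 (all genes 0.013), with 24 positive and 10 negative. The highest was that of Aurkb, 0.81 (SE 0.22, adjusted p = 0.154), whose 12-week arrays lay wholly above those at 3 weeks. Ndc80 (0.56), Mcm6 (0.51) and Bub1 (0.44) were the other 3 with an unadjusted p under 0.05, with adjusted p of 0.359, 0.384 and 0.395. Pcna differed by -0.04 between these times, with a 95% interval of -0.53 to 0.46. Arrays lay wholly higher at 12 weeks for 3 members (8.82%, all genes 7.83%) and wholly lower for 1, Plk1 (all genes 8.1%). None of the 4 further pathway lists had a gene past the threshold in this comparison.

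Between GnT-IX-deficient and wild-type mice at 12 weeks, limma called 0 of the 34 genes, beside 0.0256% of all genes (0.0205% higher and 0.00513% lower). The values leaned lower in the deficient group: 25 of the 34 differences were negative, with a median of -0.16 (all genes -0.013) and a range of -0.64 to 0.34. At the unadjusted p, 6 members were lower (17.6%, all genes 3.34%) and 0 higher (all genes 3.65%), where 6.99% of all genes passed in either direction. Deficient arrays lay wholly below wild-type ones for 5 members (14.7%, all genes 5.57%) and wholly above for 0 (all genes 5.27%). This comparison and that of 12 with 0 weeks share the wild-type 12-week arrays.

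Replication genes had the lowest median of the 6 roles, -0.43, with 7 of 8 differences negative. Rrm2 was 4.75, 4.85 and 4.54 in wild-type and 4.14, 3.67 and 4.42 in deficient mice, which did not overlap. Its difference of -0.64 (SE 0.25, adjusted p = 0.629) did not pass. Mcm5 (-0.55, adjusted p = 0.687), Mcm4 (-0.51, 0.627), Mcm2 (-0.45, 0.727), Mcm6 (-0.41, 0.743) and Mcm3 (-0.38, 0.760) had negative differences as well. Of these 5 subunits Mcm3 alone had groups that did not overlap, while for the other 4 deficient replicate 3 lay in the wild-type range. Pcna differed by -0.11 (95% interval -0.60 to 0.39) and Tyms by 0.11 (95% interval -0.38 to 0.60).

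In the other roles, Aurka was 5.76, 5.58 and 5.28 in wild-type and 5.19, 5.07 and 4.93 in deficient mice, with no overlap and a difference of -0.48 (SE 0.17, adjusted p = 0.610). Aurkb differed by -0.54 (SE 0.22, adjusted p = 0.652) and Bub1 by -0.41 (SE 0.19, adjusted p = 0.715), both without overlap. Pbk differed by -0.50 (95% interval -1.35 to 0.36) and Mki67 by -0.39 (-1.05 to 0.27). Without wild-type 12-week replicate 1 the differences of Aurkb, Pbk and Mki67 were -0.25, -0.092 and -0.077. On the other side, Top2a (0.34), Cenpf (0.32), Ccnb2 (0.31) and Cdk1 (0.24) had positive differences, with adjusted p of 0.828, 0.809, 0.828 and 0.907.

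**Figure D5:**
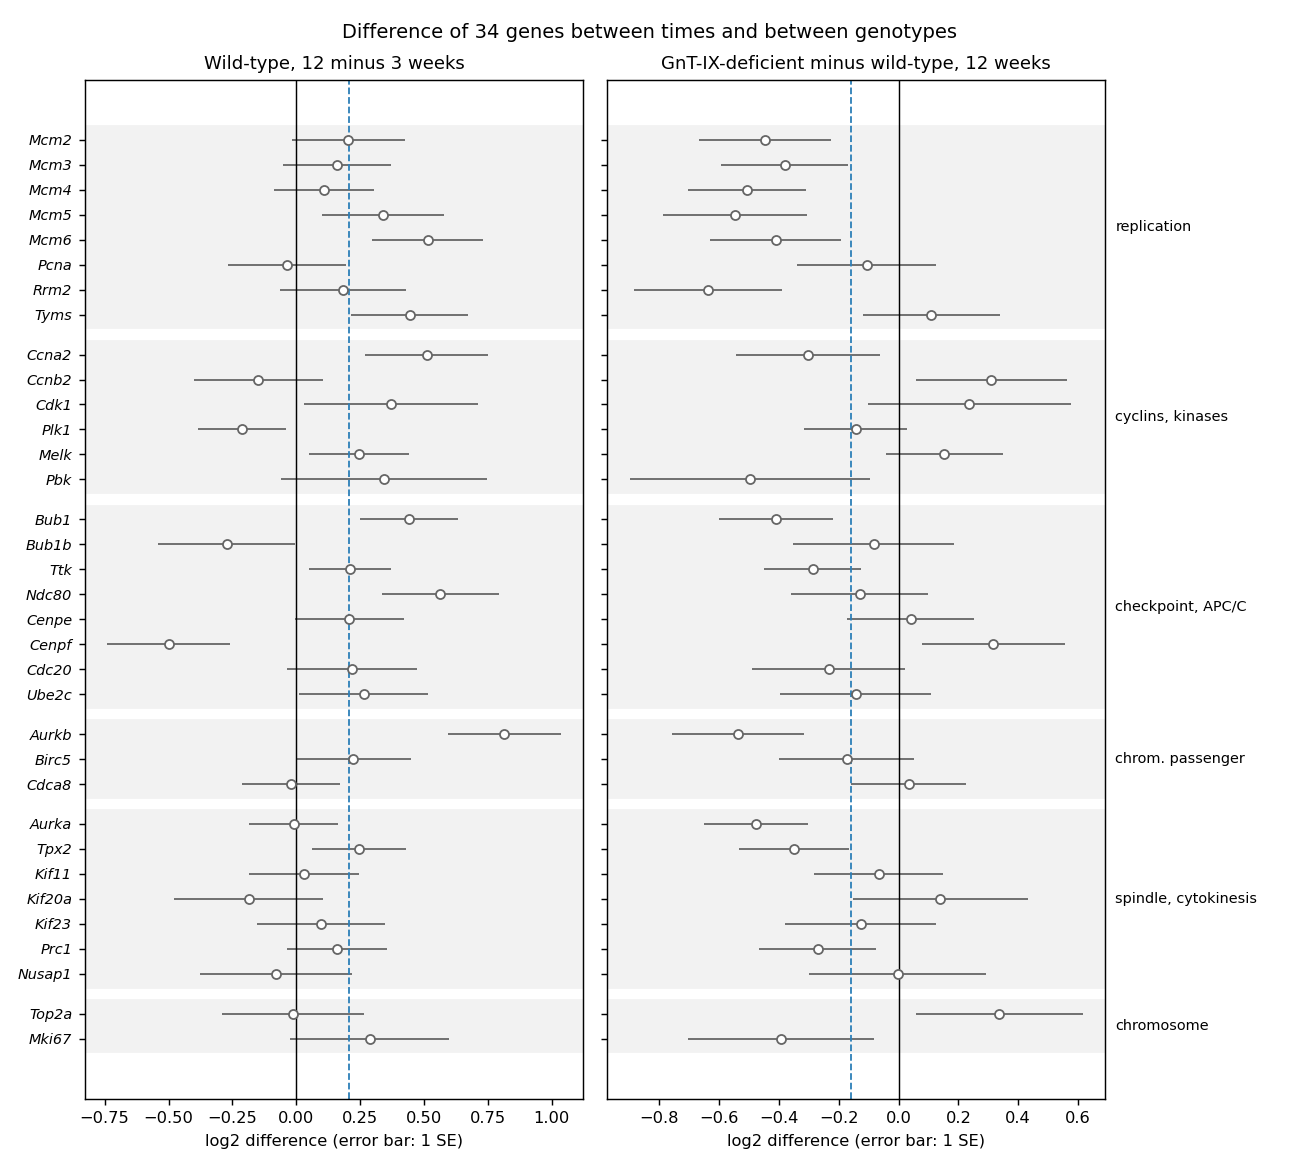
Log2 difference of each of the 34 genes (x axis, error bars 1 SE) between 12 and 3 weeks in wild-type mice (left) and between GnT-IX-deficient and wild-type mice at 12 weeks (right), grouped by role. No point passed the adjusted threshold, and the members' medians (dashed) were 0.205 and -0.16.

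Over the 34 genes, the deficient group's mean was the lowest of the 4 groups for 5 of 34 genes (14.7%, all genes 26.1%) and the highest for 7 (20.6%, all genes 25.7%). The mean of the replication genes was 6.05, 6.08 and 6.52 on its 3 arrays, against 5.74 to 6.13 at 0 weeks and 6.36 to 6.70 in wild-type mice at 12 weeks. The 26 other members averaged 4.76, 5.02 and 5.01 there, against 4.86 to 5.21 in wild-type mice at 12 weeks. Choroid plexus markers (8 genes) averaged 8.98, 7.96 and 6.26 on the deficient arrays against 5.24 to 6.08 in wild-type mice at 12 weeks, and ependymal markers (7 genes) 6.87, 8.00 and 7.57 against 6.44 to 6.90. All 14 microglia markers had a negative difference, with a median of -0.565 and none past the threshold. The part of these other cells in the differences was not tested. In the 4 further pathway lists none was called, and their medians were -0.11 for entry regulators, -0.073 for replication, -0.078 for mitosis and -0.12 for inhibitors.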

How the data were processed

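RNA of GLAST-selected cells was hybridised to 12 arrays, 3 in each of 4 groups. Per the submitters' processing notes, the authors used RMA in Affymetrix Expression Console 1.4, which corrects background, quantile-normalises and summarises probes, and the deposited values are log2 expression. RMA gives arrays a like distribution and compresses changes of dim transcripts. Of 22206 transcript clusters, 19572 had 1 symbol in the platform annotation and 2634 had none. The brightest cluster was kept for 55 genes with several, which left 19505 genes with no filter on dim ones.

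The test was limma 3.58.1 under R 4.3.3 (two-sided, lmFit then eBayes, 1 mean per group, all 12 arrays, 8 residual degrees of freedom), with Benjamini-Hochberg adjustment over all genes at 0.05. The test was tried on simulated data with noise drawn at each gene's own spread. Over the 4 comparisons it recovered 56% to 71% of log2 changes of 1 and 92% to 100% of those of 2. The 56% was that of the genotype comparison. Changes smaller than 1 were not simulated, so a member not called is not shown to be unchanged. Errors are standard errors of the fit, or SDs where said. The number of arrays limits the precision. Every array value is printed for called members and those with the smallest p up to 12 genes, and up to 4 called genes by smallest p are named per further list and comparison, with Mdm2, Tyrobp and Gfap added after their values were seen. The members and lists were chosen with earlier results of these data known. Promoters came from RefSeq (GRCm38.p6). Figures were drawn with matplotlib 3.10.9. Alternatives covered normalisation, centring, dim genes, clusters, variances, array weights, arrays in the fit, the replicate block and leaving out each array.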

Additional observations from a re-analysis of the deposited data

How the results depend on the processing

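Over the 12 genes followed on every array and the 4 comparisons (48 pairs, up to 20 alternatives each), 888 values kept direction and side of the threshold, 30 calls were lost, 28 were gained and 10 directions turned. At 3 weeks 1 member was called, 2 with array weights, and 0 to 2 when 1 array was left out. At 12 weeks 4 were called, against 12 with array weights, 7 in a fit of the 6 arrays compared, and 0 to 7 when 1 array was left out (0 without 0-week replicate 1 or 2 or 12-week replicate 1 or 2, and 7 without 3-week replicate 1 or deficient replicate 3). Deviations of same-numbered arrays from their group means correlated with r of -0.28 to 0.22 (6 of 18 pairs over 0.1). The labels do not say whether such arrays shared a day or batch, and with 3 arrays per group these values cannot decide it. With the replicate block 2 members were called at 12 weeks (Pbk adjusted p = 0.0683 and Aurkb 0.0558 were lost, limma). Over all alternatives the adjusted p was 0.00877 to 0.116 for Pcna at 3 weeks, and at 12 weeks 0.00948 to 0.170 for Pcna, 0.0154 to 0.203 for Pbk, 0.0137 to 0.161 for Bub1 (whose level the dim filter removes) and 0.0215 to 0.169 for Aurkb.

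Leaving out 1 array, the members' median difference was 0.19 to 0.425 at 3 weeks, 0.41 to 0.67 at 12 weeks, 0.11 to 0.26 between 12 and 3 weeks and -0.27 to -0.10 between genotypes. Directions that turned belonged to uncalled differences. Between 12 and 3 weeks Pcna was 0.015 after a second quantile normalisation and -0.26 to 0.088 leaving out 1 array, Pbk -0.062 to 0.61, Mcm2 -0.0067 to 0.40 and Mki67 -0.03 to 0.675. Between genotypes Pbk was -0.76 to -0.092, Aurkb -0.73 to -0.25 and Mki67 -0.78 to -0.077 with no turn, while Pcna was -0.34 to 0.077, Ube2c -0.27 to 0.097 and Tyms -0.067 to 0.20. Over all genes, 919 were called at 12 weeks with array weights (514 without). Between 12 and 3 weeks 16 were called, 9 without the dimmest 30%, 30 with trended and robust variances, 33 with array weights and 9 in the 6 arrays compared. Leaving out 1 array gave 192 to 683 calls at 3 weeks, 77 to 666 at 12 weeks, 0 to 146 between them and 3 to 49 between genotypes. Of the further pathway genes, a fit of the 6 arrays compared lost the calls of Myc, Fen1, Zwint and Mdm2 at 3 weeks and of Ccnd2, Prim2 and Cdkn1a at 12 weeks. Centring each array lost Mdm2, Ccnd2, Mycn and Prim2, a second quantile normalisation Mdm2, Mycn and Prim2, trended and robust variances Cdkn1a at 12 weeks and Prim2, and the replicate block Prim2 and Asf1b. The cause was not tested.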
